A study of Mus musculus with 6 samples.

Results

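The genes described here are 10 genes grouped as ETS factors and late ERK targets, and not each of them is a transcript readout of ERK. They are the ETS transcription factor genes *Etv1*, *Etv5*, *Etv6*, *Ets1*, and *Ets2* and the late ERK target genes *Myc*, *Ccnd1*, *Phlda1*, *Ier3*, and *Epha2*. They were taken by name from the gene names that accompany the deposited counts and joined to the counts by gene identifier. These 10 genes are among 56923 genes listed, and all 10 were among the 17212 genes that passed the filter on low counts. RNA came from the left ventricles (LVs) of mice at 12 weeks of age, perfused with phosphate-buffered saline, with 3 WT mice and 3 mutant mice and 1 library per mouse. The sample labels call the groups wild-type and mutant, and the study describes heterozygous *Lztr1* R409C/+ mice as the mutant group. The R409C substitution was introduced with CRISPR/Cas9 into the germline, so that every cell type of the heart carried it, and the mice were male and backcrossed to C57BL/6J. The comparison asks whether the mutant of LZTR1, an adaptor that leads RAS proteins to degradation, was accompanied by a different level of these transcripts in the LV. *Lztr1* itself had 24.2, 24.2, and 22.2 CPM (counts scaled to the size and composition of each library) in WT replicates 1, 2, and 3 and 23.9, 27.9, and 25.3 CPM in *Lztr1* R409C/+ replicates 1, 2, and 3. These levels do not check the genotype, because counts per gene do not show a base substitution.

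ERK, the last kinase of the RAS/MAPK cascade, enters the nucleus and phosphorylates transcription factors. Ternary complex factors of the ETS family then switch on immediate early genes such as *Fos* and *Egr1*, and further genes follow once those products have accumulated or once repressors such as capicua have been inactivated. *Myc* and *Ier3* are also known as early responders. *Etv1*, *Etv5*, and their relative *Etv4* form the PEA3 group of ETS factors, whose transcription is held down by capicua and released by ERK, so that they and genes such as *Phlda1*, *Ccnd1*, and *Epha2* are used as transcript readouts of MAPK output in tumors. In the heart, RAS/MAPK signaling is known for its part in the growth of cardiomyocytes.

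Total counts ranged from 66130887 to 72641124 per mouse. Scaling was by TMM, edgeR's correction for composition. A level of 3 counts, taken as the floor, was worth 0.0317 to 0.0541 CPM depending on the mouse, and this covers counting error alone. The mitochondrially encoded share of counts was lowest in WT replicate 3 (13.8%), highest in *Lztr1* R409C/+ replicate 1 (45.4%), and 29.7% to 37.3% in the other mice. Markers of ventricular cardiomyocytes (*Myl2*, *Myl3*, and *Irx4*) summed to between 3974 and 6763 CPM per mouse and atrial markers to between 38.1 and 107.0 CPM. Nearly all of the atrial sum came from a single gene, *Nppa*, at 37.7 to 106.5 CPM, and only 2 of the 4 atrial markers passed the filter. The 10 leukocyte markers, among them *Ptprc*, *Cd68*, and *C1qb*, summed to 112.0 to 121.6 CPM in WT and 209.0 to 218.7 CPM in *Lztr1* R409C/+ mice. Each of the 10 was higher in *Lztr1* R409C/+ mice at an unadjusted p under 0.05. The endothelial markers overlapped between the genotypes, with sums of 713.5 to 900.6 CPM in WT and 626.8 to 968.5 CPM in *Lztr1* R409C/+ mice, and so did the fibroblast markers, with 1458 to 1931 CPM and 1269 to 1903 CPM. The sums of general cardiomyocyte markers (41477 to 45578 CPM in WT, 31173 to 43140 CPM in *Lztr1* R409C/+ mice), smooth muscle and pericyte markers (664.8 to 788.3 and 624.2 to 764.6 CPM), and neuronal and Schwann cell markers (4.80 to 6.83 and 3.40 to 6.24 CPM) overlapped likewise as sums. The genotypes did not overlap in 6 of 46 tested markers outside the leukocyte list (13%, beside 15.5% of all genes), of which 5 were at an unadjusted p under 0.05 in the edgeR QL test and 0 passed after adjustment. *Myh11* (11.6 to 12.5 CPM in WT, 4.96 to 9.87 CPM in *Lztr1* R409C/+ mice) and *Tagln* (4.27 to 5.57 and 2.91 to 3.71 CPM) of smooth muscle were lower, while *Lum* (42.0 to 48.3 and 54.0 to 76.7 CPM) and *Tcf21* (2.59 to 4.04 and 4.62 to 5.13 CPM) of fibroblasts and *Emcn* (23.4 to 32.3 and 35.7 to 40.3 CPM) of endothelium were higher. The sixth, *Ryr2* of cardiomyocytes, had 1027 to 1147 CPM in WT and 691.9 to 972.8 CPM in *Lztr1* R409C/+ mice (unadjusted p = 0.0987). The sums of the 5 erythroid markers were 578.8 to 1479 CPM in WT and 1042 to 2625 CPM in *Lztr1* R409C/+ mice. Their log2 fold changes were above 0 in 5 of 5 cases, with a median of 0.97, and *Hba-a1*, *Hba-a2*, and *Alas2* were at an unadjusted p under 0.05.

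Of the 10 genes, *Ccnd1*, which encodes cyclin D1, was the only one in which every *Lztr1* R409C/+ mouse was above every WT mouse, and the only one with an unadjusted p under 0.05. After adjustment over all genes for multiple testing (Benjamini-Hochberg), the quasi-likelihood (QL) test of edgeR called 0 of the 10 genes, and DESeq2 and edgeR's exact test called 0 as well. For the background, 0.0407% of all genes tested were called at this threshold, 0.0349% higher and 0.00581% lower. At an unadjusted p under 0.05, 1 of the 10 genes was higher and 0 were lower, beside 8.63% of all genes, 5.77% higher and 2.86% lower. These shares, 993 genes higher and 493 lower, became 699 and 710 genes with a gene length correction, 388 and 301 with library size alone, and 1176 and 305 with upper quartile scaling. The genotypes did not overlap in 1 of the 10 genes, beside 15.5% of all genes, 8.3% with every *Lztr1* R409C/+ mouse above WT and 7.23% below. The log2 fold change of *Lztr1* R409C/+ over WT mice was above 0 in 8 of the 10 genes, beside 51.4% of all genes. With the libraries scaled by their size only, it was above 0 in 5 of the 10 genes, beside 34.5% of all genes. Without *Lztr1* R409C/+ replicate 2 it was above 0 in 5 of the 10 genes, beside 51.1% of all genes. When both libraries of extreme mitochondrial share were left out, 10 of 10 were above 0, beside 50.9% of all genes. A share of 1 in 10 is close to the background shares, and these counts carry no result about the genes as a group. Their median log2 fold change was 0.13, beside 0.012 for all genes. It was -0.011 with library size alone (all genes, -0.14), 0.063 with the gene length correction (all genes, -0.038), 0.22 without both libraries of extreme mitochondrial share, 0.068 without WT replicate 1, and 0.20, 0.046, and 0.035 without *Lztr1* R409C/+ replicate 1, 2, or 3. Because the LV was sequenced as a whole, fewer cells of a type and less RNA per cell cannot be told apart in any of these values.

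**Figure D1:**
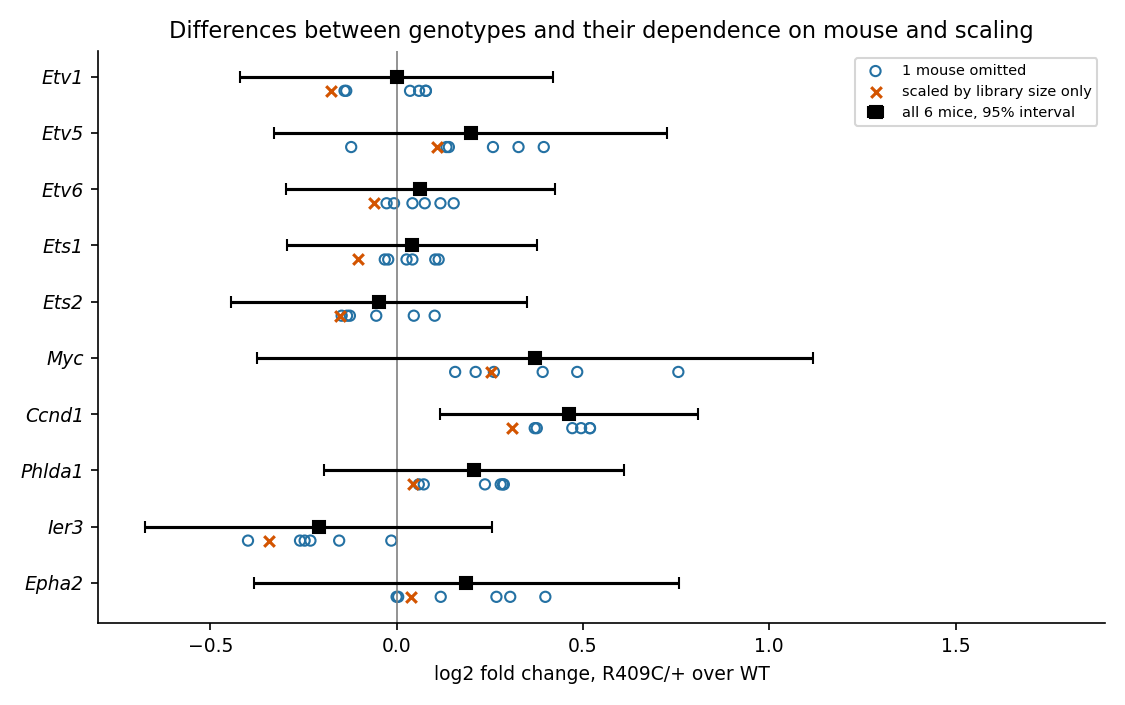
Log2 fold change of *Lztr1* R409C/+ over WT mice for each of the 10 genes (x axis; above 0 is higher in *Lztr1* R409C/+ mice). Black squares with bars are the estimates and 95% intervals from all 6 mice, open circles leave out 1 mouse each, and crosses use library size alone. The interval leaves out 0 only for *Ccnd1* (0.12 to 0.81).

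Among the ETS factors, the PEA3 member *Etv1* (ENSMUSG00000004151.18, chromosome 12 of GRCm39, 38828851 to 38920483), which in the heart is known from the fast-conducting myocardium, had 9.41, 13.0, and 12.7 CPM in WT replicates 1, 2, and 3 and 11.0, 13.8, and 10.4 CPM in *Lztr1* R409C/+ replicates 1, 2, and 3. Genotypes were intermixed, with the highest value in a *Lztr1* R409C/+ mouse and the lowest in a WT mouse, and the averages came to 11.7 ± 2.001 CPM (SD, n = 3) in WT and 11.7 ± 1.79 CPM (SD, n = 3) in *Lztr1* R409C/+ mice. The log2 scale gave a difference of 0.00011, with a 95% interval of -0.42 to 0.42. *Etv5* (ENSMUSG00000013089.16, chromosome 16, 22200052 to 22259662), the other PEA3 member, had 10.3, 13.2, and 10.2 CPM in WT and 8.93, 11.7, and 18.0 CPM in *Lztr1* R409C/+ replicates 1, 2, and 3. Both the lowest and the highest value were those of *Lztr1* R409C/+ mice, so that the spread in this genotype (4.65 CPM) exceeded the difference between the means, 11.2 and 12.9 CPM. Its log2 fold change was 0.20 with a standard error of 0.24 (edgeR QL test, adjusted p = 0.858). Without *Lztr1* R409C/+ replicate 3, the estimate changed direction, to -0.12.

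*Etv6* (ENSMUSG00000030199.17, chromosome 6, 134011980 to 134247121) encodes TEL, a repressor of the ETS family. It had 19.3, 20.5, and 17.1 CPM in WT and 17.0, 22.0, and 20.4 CPM in *Lztr1* R409C/+ replicates 1, 2, and 3, with a log2 fold change of 0.063 (95% interval, -0.30 to 0.42). *Ets1* (ENSMUSG00000032035.17, chromosome 9, 32547517 to 32669116), the founding member of the family and well known in endothelial and lymphoid cells, had 62.6, 75.0, and 69.0 CPM in WT and 62.9, 77.3, and 72.4 CPM in *Lztr1* R409C/+ mice. The genotypes covered nearly the same range. Its log2 fold change was 0.042 (95% interval, -0.29 to 0.38), and its values varied least among the 10 genes, with the highest mouse 1.24-fold above the lowest. *Ets2* (ENSMUSG00000022895.17, chromosome 16, 95502847 to 95522095), whose product is activated through phosphorylation by ERK, had 80.1, 91.4, and 71.2 CPM in WT. The *Lztr1* R409C/+ values were 60.2, 88.0, and 86.5 CPM. The lowest of the 6 values was that of *Lztr1* R409C/+ replicate 1, the mouse with the highest mitochondrial share, whose part in this value was not tested. The log2 fold change was -0.047 (standard error 0.18), and without this mouse it was 0.10. The upper ends of the 95% intervals of the fold change were 1.27-fold for *Ets2*, 1.30-fold for *Ets1*, 1.34-fold for *Etv6* and *Etv1*, and 1.65-fold for *Etv5*.

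**Figure D2:**
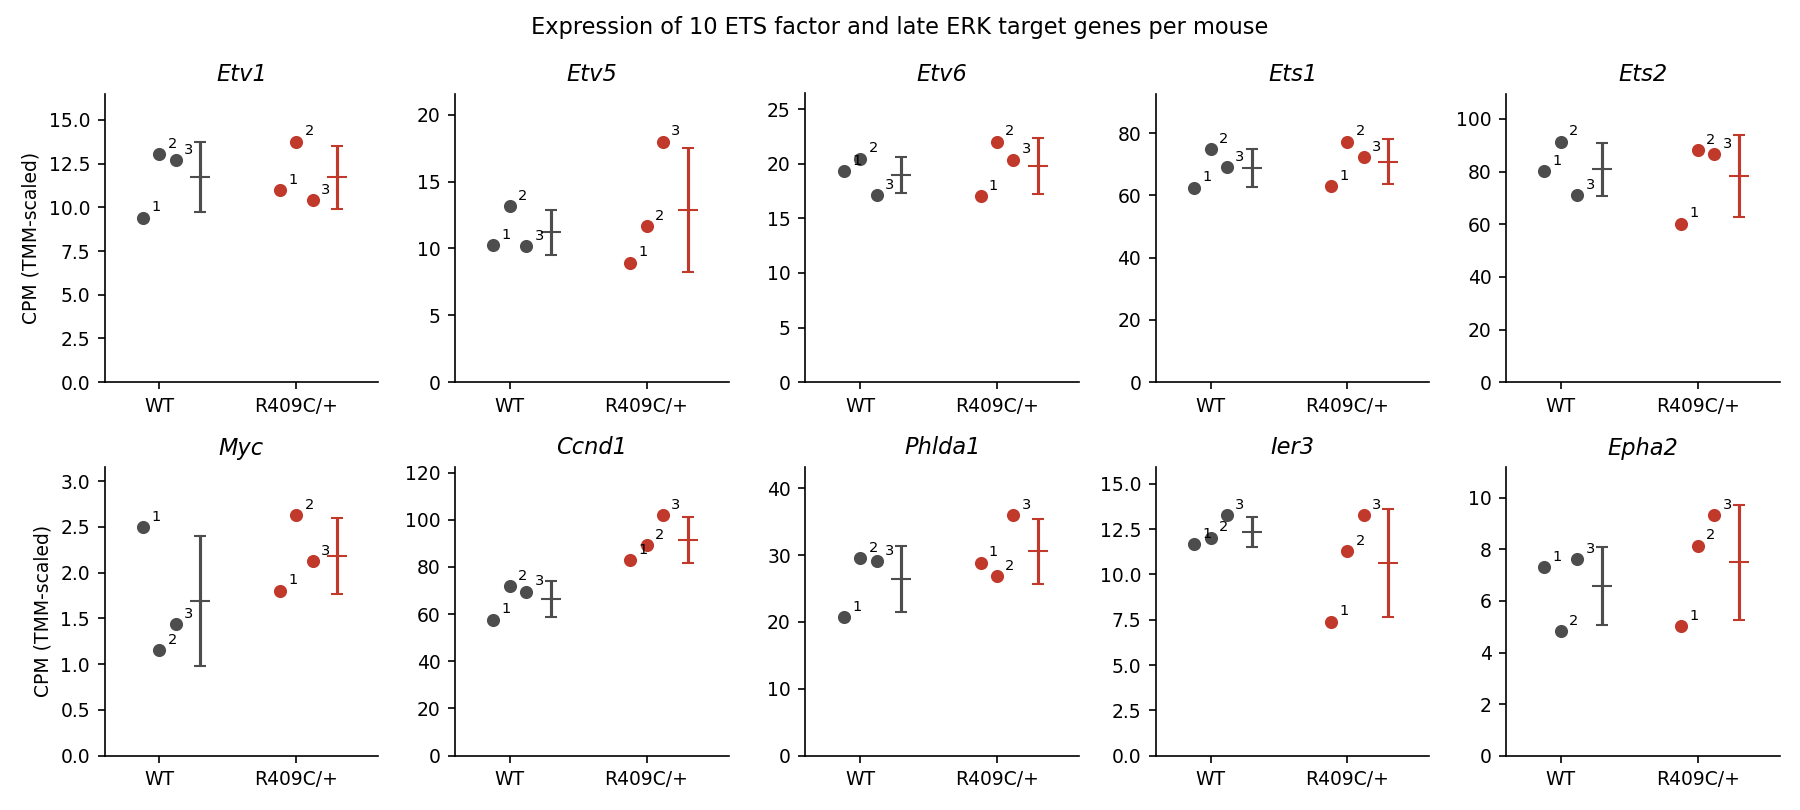
TMM-scaled CPM (y axis, from 0) of each of the 10 genes in 3 WT (grey) and 3 *Lztr1* R409C/+ (red) mice, with replicate numbers beside the points and the mean ± SD to their right. The genotypes separate for *Ccnd1*, at 57.7 to 71.9 CPM against 82.9 to 102 CPM, and overlap in the other panels.

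Of the late targets, *Ccnd1* (ENSMUSG00000070348.6, chromosome 7, 144483668 to 144493662) encodes cyclin D1, the partner of CDK4 and CDK6 that couples growth factor signaling to entry into the cell cycle. It had 57.7, 71.9, and 69.5 CPM in WT replicates 1, 2, and 3 and 82.9, 89.3, and 102 CPM in *Lztr1* R409C/+ replicates 1, 2, and 3, from 3812 to 7391 counts. The lowest *Lztr1* R409C/+ value lay above the highest WT value. WT mice averaged 66.3 ± 7.59 CPM (SD, n = 3) and *Lztr1* R409C/+ mice 91.4 ± 9.69 CPM (SD, n = 3). The fold change was 1.38 (95% interval, 1.08 to 1.75), a log2 fold change of 0.46 with a standard error of 0.16. In the edgeR QL test, p was 0.0131 before and 0.456 after adjustment, and under the alternatives the adjusted p lay between 0.288 and 0.976. The two-sided exact permutation test of 3 mice against 3 gave p = 0.1, the smallest it allows. *Ccnd1* thus ranked 493rd of the 17212 genes by p.

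The separation of *Ccnd1* rested on the correction for composition. With library size alone it had 53.1, 65.0, and 96.6 CPM in WT and 66.4, 87.9, and 111.8 CPM in *Lztr1* R409C/+ replicates 1, 2, and 3, and WT replicate 3, the library with the lowest mitochondrial share, then lay above 2 of the *Lztr1* R409C/+ mice. The log2 fold change was then 0.31 (edgeR QL test, unadjusted p = 0.346), while the median of all genes moved from 0.012 to -0.14. With mitochondrially encoded genes removed before scaling, it was 0.46. Without WT replicate 3 and *Lztr1* R409C/+ replicate 1 together, the libraries with the extreme mitochondrial shares, it was 0.56 (edgeR QL test, unadjusted p = 0.00823). Without WT replicate 1, the lowest mouse, it was 0.37 and no longer under 0.05 (edgeR QL test, unadjusted p = 0.0826).

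The exons of *Ccnd1* share 2315 bases, 48.4% of their merged length, with *LTO1*, a gene on the opposite strand, in GENCODE vM39. The sources used here do not say that reads were counted by strand, so reads of the pair may not be told apart. *LTO1* had 8.97, 8.90, and 12.2 CPM in WT and 9.47, 8.34, and 9.88 CPM in *Lztr1* R409C/+ mice, with a log2 fold change of -0.12 (edgeR QL test, adjusted p = 0.901). When its counts were added to those of *Ccnd1*, the sums were 66.7, 80.8, and 81.7 CPM in WT and 92.4, 97.6, and 111.8 CPM in *Lztr1* R409C/+ mice. They still did not overlap, with a log2 fold change of 0.40 (edgeR QL test, unadjusted p = 0.0267). The leukocyte markers were higher in the same 3 mice.

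**Figure D3:**
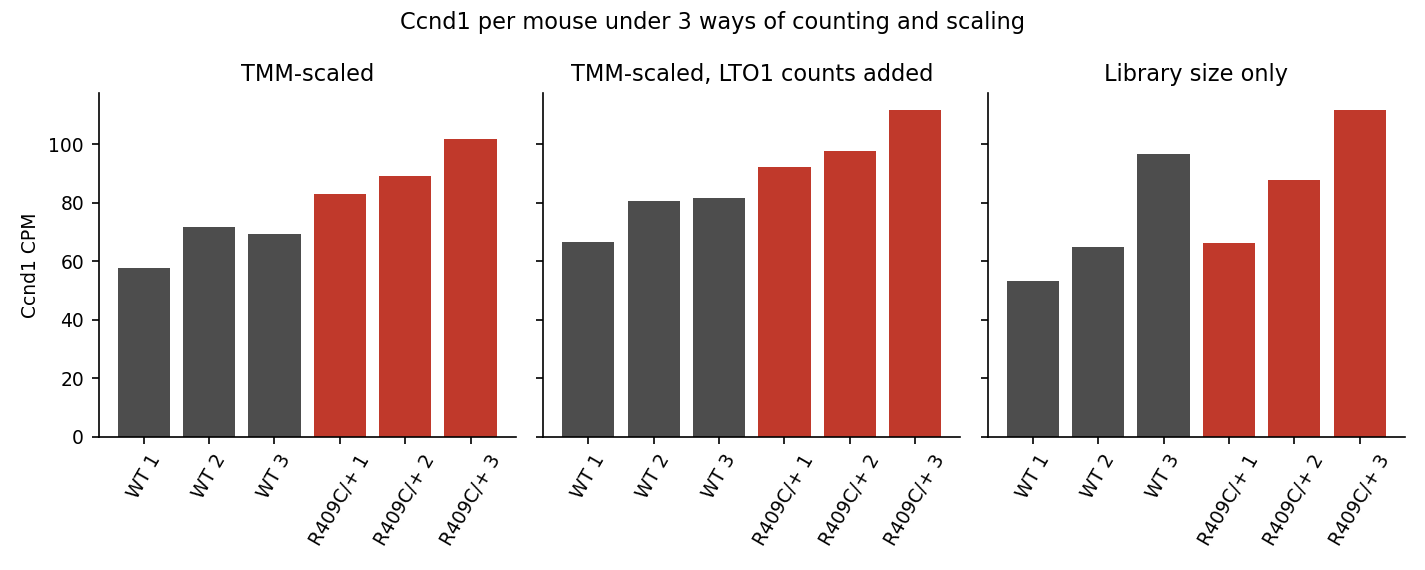
*Ccnd1* CPM (y axis) in each WT (grey) and *Lztr1* R409C/+ (red) mouse with TMM scaling, with the counts of the overlapping gene *LTO1* added, and with library size alone. Under library size alone, WT replicate 3 reaches 96.6 CPM and lies above *Lztr1* R409C/+ replicates 1 and 2.

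*Myc* (ENSMUSG00000022346.18, chromosome 15, 61857227 to 61862223), the proto-oncogene that encodes a transcription factor of growth and proliferation, had the lowest CPM of the 10 genes, before any correction for gene length. It had 2.50, 1.15, and 1.44 CPM in WT and 1.80, 2.63, and 2.12 CPM in *Lztr1* R409C/+ replicates 1, 2, and 3, from 74 to 188 counts. WT replicate 1 exceeded 2 of the *Lztr1* R409C/+ mice, and the other WT mice lay below all 3. The log2 fold change was 0.37 with a wide 95% interval of -0.37 to 1.12 (edgeR QL test, adjusted p = 0.806). It was 0.76 without WT replicate 1, 0.16 without WT replicate 2, and 0.21 without *Lztr1* R409C/+ replicate 2, so that its size rested on single mice. With the gene length correction it was 0.23.

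*Phlda1* (ENSMUSG00000020205.9, chromosome 10, 111342147 to 111344506) encodes a pleckstrin homology-like protein that is used as a transcript marker of MAPK output. Its values were 20.8, 29.5, and 29.1 CPM in WT and 28.9, 26.8, and 36.0 CPM in *Lztr1* R409C/+ replicates 1, 2, and 3. WT replicate 1 was the lowest and *Lztr1* R409C/+ replicate 3 the highest mouse, while the other WT mice lay above the other *Lztr1* R409C/+ mice. The log2 fold change of 0.21 (95% interval, -0.19 to 0.61) was 0.037 after a correction for gene length, 0.044 with library size alone, 0.060 without WT replicate 1, and 0.073 without *Lztr1* R409C/+ replicate 3. *Ier3* (ENSMUSG00000003541.7, chromosome 17, 36132568 to 36133815), whose product modulates survival and sustains ERK phosphorylation, had 11.7, 12.0, and 13.3 CPM in WT. It had 7.40, 11.3, and 13.3 CPM in *Lztr1* R409C/+ replicates 1, 2, and 3. WT mice were tight, with an SD of 0.829 CPM, and replicate 1 was the lowest *Lztr1* R409C/+ mouse. The log2 fold change of -0.21 (standard error 0.21) was -0.014 without this mouse, -0.40 without *Lztr1* R409C/+ replicate 3, and -0.38 after the gene length correction. *Epha2* (ENSMUSG00000006445.4, chromosome 4, 141028540 to 141056695), a receptor tyrosine kinase for ephrin-A ligands that is transcribed in response to ERK, had 7.31, 4.83, and 7.61 CPM in WT and 5.02, 8.14, and 9.33 CPM in *Lztr1* R409C/+ mice. Low and high values occurred in both genotypes, and the log2 fold change was 0.19 (95% interval, -0.38 to 0.76). It became 0.40, 0.12, and 2.46e-05 without *Lztr1* R409C/+ replicate 1, 2, or 3, and 0.0043 and 0.30 without WT replicate 2 or 3. With library size alone it was 0.038, with the gene length correction 0.092, and without both libraries of extreme mitochondrial share 0.52.

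The upper bounds of the 95% intervals of these late targets were 1.19-fold for *Ier3*, 1.53-fold for *Phlda1*, 1.69-fold for *Epha2*, and 2.17-fold for *Myc*. With TMM scaling, the highest value was that of a *Lztr1* R409C/+ mouse for 9 of the 10 genes, 5 times replicate 3 and 4 times replicate 2. This tally depends on the scaling. The TMM factor was largest in WT replicate 3 (1.39), and with library size alone that WT mouse is the highest for most of the 10 genes. No share over all genes was computed for the tally, and it carries no result about the genes as a group. On the same TMM scale, *Lztr1* R409C/+ replicate 1 was the lowest of all 6 mice for 4 genes, *Etv5*, *Etv6*, *Ets2*, and *Ier3*. WT replicate 1 was the lowest for another 4, *Etv1*, *Ets1*, *Ccnd1*, and *Phlda1*. The SD among *Lztr1* R409C/+ mice exceeded the difference between the genotype means for each of the 10 genes except *Ccnd1* and *Myc*. Exons of *Phlda1* and *Ier3* are also overlapped on the opposite strand, over 33.0% and 34.8% of their merged length, by the long noncoding RNA genes *Gm28592* and *Gm66231*, of which the first had at most 3 counts in any mouse and the second is not listed among the deposited counts.

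Promoter windows, from 250 bases before to 50 bases after the start of transcription, were taken from RefSeq (GRCm38.p6) for 6 of the 10 genes, *Etv1*, *Etv5*, *Etv6*, *Ets2*, *Ier3*, and *Epha2*, with 2 windows each for *Etv1* and *Etv5*, and each window was found once on its chromosome in GRCm39. *Ets1*, *Myc*, *Ccnd1*, and *Phlda1* had none in the table. GGAA, the core that ETS factors bind, was searched on both strands and stood in 7 of the 8 windows and in a window of each of the 6 genes, beside 96.0% of all 32851 windows, so that its presence does not set these genes apart. CCGGAAGT, the extended ETS site, was in 0 of the 8 windows and in 3.89% of all windows, and the CArG box of SRF was in 0 and in 1.63%. CACGTG, the E-box of MYC, was in 0 of the 8 windows (7.15% of all), as was TGANTCA, the AP-1 site (7.81% of all). The capicua octamer TGAATGAA was in 1 window, that of *Epha2* (1.30% of all windows), and the variant TGAATGGA in 0 (1.21%). The windows of *Ier3* and *Epha2*, the only late targets with one, are shown for the part before their first annotated exon, with GGAA (or TTCC, its reverse complement) and the octamer in capitals. The printed parts hold 5 GGAA cores each. The *Epha2* octamer ends 8 bases before the start, and a match in these letters is not evidence of binding.

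Ier3 (chr17:36132355-36132567, plus strand): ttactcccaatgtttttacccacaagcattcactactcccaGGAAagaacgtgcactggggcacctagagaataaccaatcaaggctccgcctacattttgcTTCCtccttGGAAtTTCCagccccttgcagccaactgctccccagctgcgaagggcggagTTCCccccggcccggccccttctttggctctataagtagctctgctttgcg

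Epha2 (chr4:141028282-141028531, plus strand): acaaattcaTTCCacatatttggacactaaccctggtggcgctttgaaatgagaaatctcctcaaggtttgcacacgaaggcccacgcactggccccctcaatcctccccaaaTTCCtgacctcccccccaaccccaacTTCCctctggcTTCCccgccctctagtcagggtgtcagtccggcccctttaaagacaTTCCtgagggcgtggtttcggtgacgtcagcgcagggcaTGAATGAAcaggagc

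Levels of different genes were compared as CPM per kilobase of merged exons. In WT mice the order was *Ccnd1* (13.9 ± 1.59, SD, n = 3), *Ets2* (13.0 ± 1.63), *Phlda1* (12.0 ± 2.24), *Ier3* (10.8 ± 0.728), *Ets1* (8.11 ± 0.731), *Etv6* (2.35 ± 0.209), *Etv5* (1.49 ± 0.226), *Epha2* (1.41 ± 0.326), *Etv1* (0.837 ± 0.143), and *Myc* (0.621 ± 0.260). The values of neighbours overlapped between *Ccnd1*, *Ets2*, *Phlda1*, and *Ier3*, between *Etv5* and *Epha2*, and between *Etv1* and *Myc*. The steps from *Ier3* to *Ets1*, from *Ets1* to *Etv6*, from *Etv6* to *Etv5*, and from *Epha2* to *Etv1* lay outside the spread of the WT mice. *Ccnd1* and *Ets2* thus stood above 92.0% and 91.5% of all tested genes in WT mice on this scale, and *Etv1* and *Myc* above 39.9% and 34.9%. In *Lztr1* R409C/+ mice *Ccnd1* led with 19.1 ± 2.03 CPM per kilobase (SD, n = 3), and *Phlda1* (13.9 ± 2.18) came before *Ets2* (12.6 ± 2.52) with overlapping values.

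**Figure D4:**
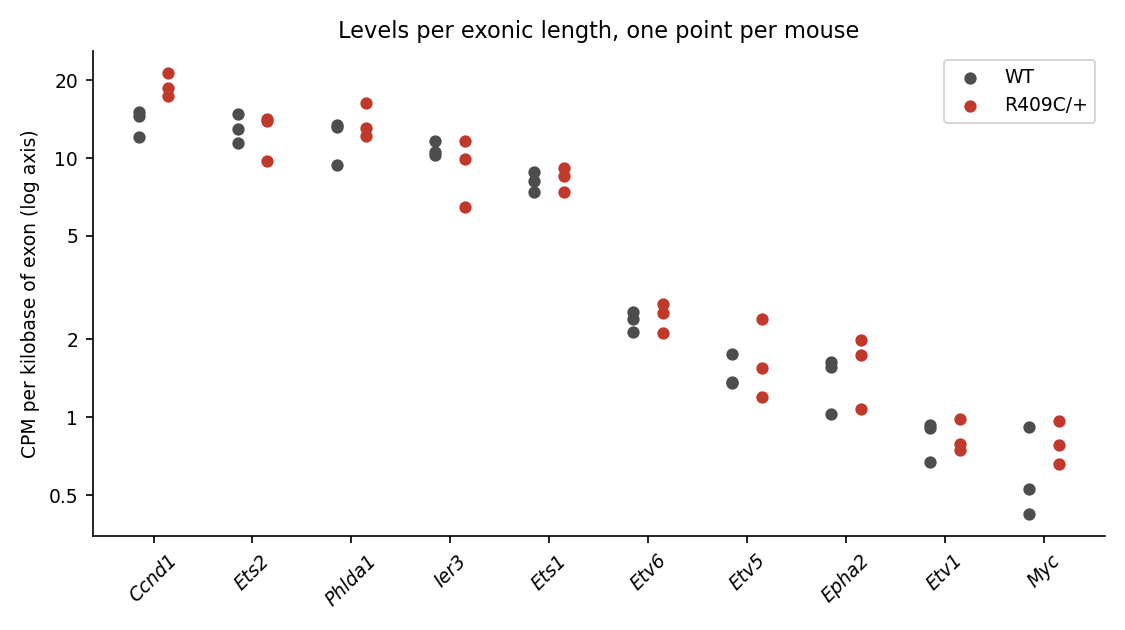
CPM per kilobase of merged exons (y axis, log scale) of the 10 genes in WT (grey) and *Lztr1* R409C/+ (red) mice, 1 point per mouse, ordered by the WT mean. *Ccnd1*, *Ets2*, *Phlda1*, *Ier3*, and *Ets1* form an upper group from 6.50 to 21.3, and the other 5 genes lie between 0.421 and 2.73.

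Over the 6 mice, the log2 CPM of *Ets2* and *Etv6* had the highest correlation between any 2 of the 10 genes (Pearson's r = 0.90), followed by *Ccnd1* and *Phlda1* (r = 0.80). The PEA3 members *Etv1* and *Etv5* had an r of -0.020, and the lowest value was that of *Etv1* and *Myc* (r = -0.39). Among 176 other tested genes of the gene lists and markers, the pattern closest to *Ccnd1* was that of *Btg2* (r = 0.96), an antiproliferative immediate early gene, and *Etv5* was closest to *Errfi1* (r = 0.92), which encodes a feedback inhibitor of EGF receptors. *Etv6* was closest to *Pecam1* (r = 0.91), *Ets2* to *Flt1* (r = 0.95), *Ets1* to *Dusp4* (r = 0.91), *Phlda1* to *Spib* (r = 0.89), and *Etv1* to *Rbl1* (r = 0.85). For *Ier3* it was *Acta2* (r = 0.97), for *Epha2* *Mxd4* (r = 0.97), and for *Myc* *Atxn1l* (r = 0.99). These values describe 6 mice of 2 genotypes that share 1 scaling, and for *Etv1* 121 of all tested genes had a higher correlation than the gene named. For *Etv6*, *Etv5*, *Ets2*, *Phlda1*, and *Ets1* the number of such genes was 98, 96, 84, 79, and 55. It was 43 for *Ier3*, 19 for *Ccnd1*, 9 for *Epha2*, and 0 for *Myc*. *Spib* had only 8 to 35 counts per mouse.

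The 20 tested genes of the ETS family, of 26 listed, comprised 15 with a log2 fold change above 0 and 5 below, with a median of 0.10 beside 0.012 for all genes. They include the ETS factors described above, without which 11 of 15 were above 0, with a median of 0.25. The median of the 20 was -0.013 with library size alone (all genes, -0.14), 0.20 and 0.039 without WT replicate 2 or 3, and 0.17 and 0.061 without *Lztr1* R409C/+ replicate 1 or 3. *Spi1*, which encodes the myeloid factor PU.1, was the only one with an unadjusted p under 0.05. It had 1.70, 1.82, and 1.69 CPM in WT and 3.84, 3.47, and 4.86 CPM in *Lztr1* R409C/+ mice (log2 fold change 1.23, edgeR QL test, adjusted p = 0.215), beside leukocyte markers that were higher in the same 3 mice, and the part of leukocytes in this value was not tested. *Gabpa*, a regulator of genes for mitochondrial proteins, had the next smallest p, with 59.3 to 61.4 CPM in WT and 47.6 to 53.9 CPM in *Lztr1* R409C/+ mice. Of the ETS genes not tested, *Etv2*, *Elf3*, *Elf5*, and *Spdef* had 0 counts in every mouse.

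A set of 10 genes is in use as a transcript score of MAPK output, and it includes *Ccnd1*, *Phlda1*, *Etv5*, and *Epha2*. Of the 10 score genes, 8 had a log2 fold change above 0 (51.4% of all genes) and 2 below, with a median of 0.20. By the edgeR QL test, 2 of 10, *Ccnd1* and *Spry4*, were higher at an unadjusted p under 0.05 (5.77% of all genes), and 0 after adjustment. Without *Ccnd1*, *Phlda1*, *Etv5*, and *Epha2*, 4 of 6 were above 0, with a median of 0.21. The median of the set of 10 was 0.077 with library size alone (all genes, -0.14), 0.31 without WT replicate 2, and 0.40 and 0.036 without *Lztr1* R409C/+ replicate 1 or 3. *Etv4*, the remaining PEA3 member, was close to the limit of detection, at 21, 8, and 5 counts for WT replicates 1, 2, and 3 against 13, 56, and 14 for *Lztr1* R409C/+ replicates 1, 2, and 3. The feedback phosphatase gene *Dusp6* had 16.6 to 20.2 CPM in WT and 18.1, 31.3, and 21.9 CPM in *Lztr1* R409C/+ replicates 1, 2, and 3. *Epha4*, an ephrin receptor of the same family as *Epha2*, stood on the other side, with 66.3 to 69.9 CPM in WT and 40.9, 57.9, and 64.8 CPM in *Lztr1* R409C/+ mice, without overlap (log2 fold change -0.33, edgeR QL test, adjusted p = 0.648). *Spry2* (log2 fold change -0.093) and *Dusp4* (0.034) completed the set.

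Other genes that follow ERK with delay were 8 above and 5 below 0 of 13 tested, with a median of 0.11, which was -0.049 with library size alone (all genes, -0.14), 0.066 without WT replicate 1, and 0.0021 without *Lztr1* R409C/+ replicate 2. *Emp1*, an epithelial membrane protein gene, had 32.3 to 43.7 CPM in WT and 55.3 to 63.7 CPM in *Lztr1* R409C/+ mice (log2 fold change 0.65, edgeR QL test, adjusted p = 0.238), and *Spred3*, an inhibitor of RAS signaling, had 0.369 to 0.684 CPM and 0.839 to 1.23 CPM. The 12 immediate early genes of the list, the first to respond to ERK, were above 0 in 12 of 12 cases with TMM scaling (51.4% of all genes), with a median of 0.67 and 6 higher at an unadjusted p under 0.05 (5.77% of all genes). Their median was 0.54 with library size alone (all genes, -0.14) and 0.40 without *Lztr1* R409C/+ replicate 3. *Fos* (1.48 CPM) and *Egr1* (8.25 CPM) stood just above WT in *Lztr1* R409C/+ replicate 1, beside 8.18 and 23.4 CPM in replicate 2. Replicate 1 is the mouse in which *Etv5*, *Etv6*, *Ets2*, and *Ier3* had their lowest values. Of the capicua complex, *Cic*, *Atxn1*, and *Atxn1l* had log2 fold changes of -0.0070, -0.0066, and 0.13. *Med23*, a Mediator subunit used by ETS factors, had 16.8 to 22.7 CPM in WT and 12.9 to 15.1 CPM in *Lztr1* R409C/+ mice (edgeR QL test, adjusted p = 0.495).

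The MYC network, *Myc* included, was mixed, with 7 of 16 tested genes above 0 and a median of -0.037, and without *Myc* 6 of 15 were above 0. It was -0.14 with library size alone (all genes, -0.14), 0.064 and -0.012 without WT replicate 1 or 3, and 0.047, 0.015, and -0.10 without *Lztr1* R409C/+ replicate 1, 2, or 3. *Mxd3*, an antagonist of MYC at E-boxes, was counted 0, 8, and 9 times in WT and 27, 48, and 36 times in the *Lztr1* R409C/+ genotype (edgeR QL test, adjusted p = 0.352), and *Mycn* had 1.99 to 2.80 CPM in WT and 2.47 to 4.95 CPM in *Lztr1* R409C/+ mice. Around *Ccnd1*, 16 of 24 genes of cyclin D and G1 control were above 0, with a median of 0.053 and with 2 of 24, *Ccnd1* and *Cdk6*, higher at an unadjusted p under 0.05 (5.77% of all genes). That median was -0.11 with library size alone (all genes, -0.14), 0.0074 and 0.14 without WT replicate 1 or 3, and 0.11 and 0.0043 without *Lztr1* R409C/+ replicate 1 or 2. *Cdk6*, the kinase partner of cyclin D1, had 11.0 to 16.5 CPM in WT and 15.3 to 20.9 CPM in *Lztr1* R409C/+ mice. The other D-type cyclins did not share the separation seen in *Ccnd1*, since *Ccnd2* had a log2 fold change of 0.016 and *Ccnd3* of 0.18 with overlapping mice, although the difference between the cyclins was not tested. The proliferation genes were above 0 in 9 of 12 cases, with a median of 0.48, or 0.30 with library size alone (all genes, -0.14) and 0.20 without *Lztr1* R409C/+ replicate 2. *Mki67*, which marks cycling cells, had 3.42 to 5.05 CPM in WT and 6.68 to 9.57 CPM in *Lztr1* R409C/+ mice (log2 fold change 0.84, edgeR QL test, adjusted p = 0.286). *Mcm5*, a replication licensing gene, had 1.31 to 1.66 CPM and 2.26 to 4.13 CPM. The paper stained LVs of this genotype and age for the protein product of *Mki67* and reports no increase in positive nuclei. Cycling cells were not counted here, and RNA levels of the whole LV do not give their number. Whether leukocytes contributed to the values of *Ccnd1* or of the proliferation genes was not tested.

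The relatives of the other late targets were few. *Phlda3* had a log2 fold change of 0.51 with overlapping mice, and *Phlda2* had 0 counts. In the IER family, 3 of 4 genes were above 0, with *Ier2* at 0.35, *Ier5l* at 0.52, and *Ier3* as the one below. Of the 4 EPHA receptors tested, 2 were above and 2 below 0, where *Epha7* had 4.25 to 4.72 CPM in WT and 3.27 to 3.86 CPM in *Lztr1* R409C/+ mice. *Efna5*, an ephrin-A ligand, had 7.69 to 9.28 CPM in WT and 4.30 to 5.83 CPM in *Lztr1* R409C/+ mice, a log2 fold change of -0.75 (edgeR QL test, adjusted p = 0.284), while *Efna1* had 0.030 and *Efna2* 0.24. In each of these lists, 0 genes passed the threshold after adjustment.

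**Figure D5:**
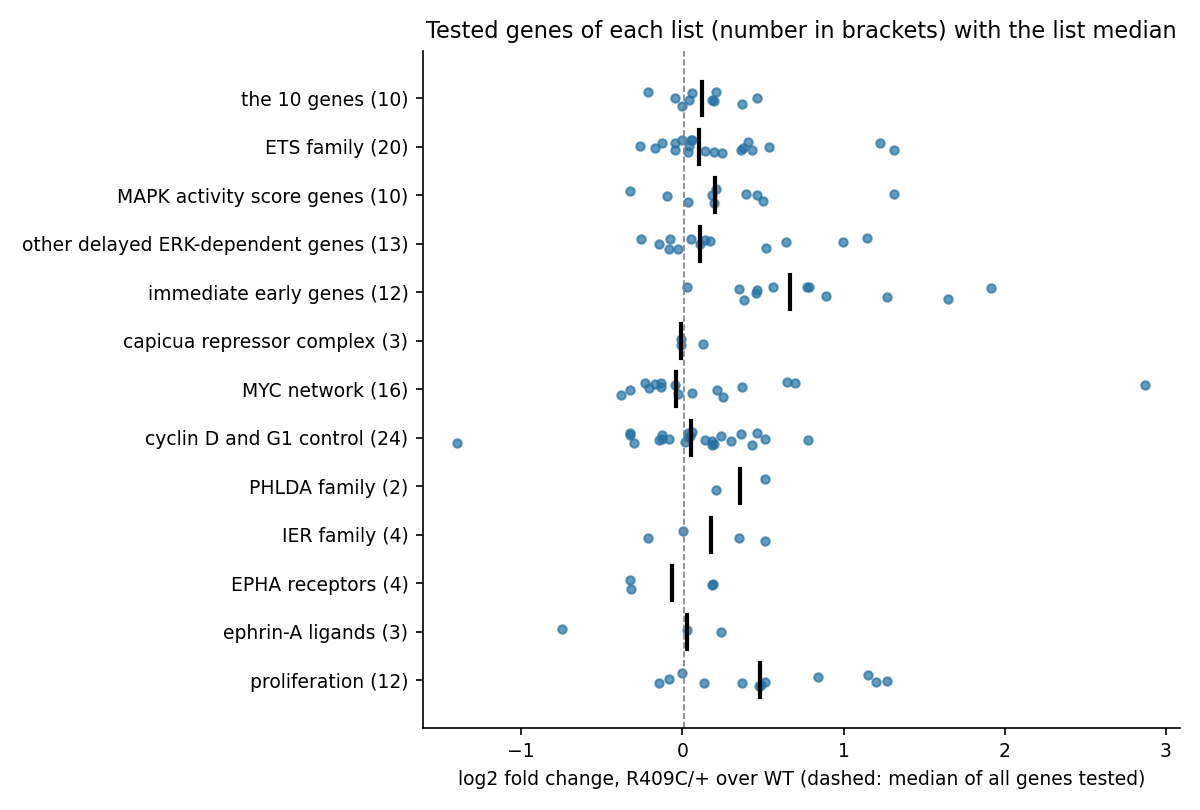
Log2 fold change of *Lztr1* R409C/+ over WT mice (x axis) for each tested gene (point) of the 10 genes and of the related lists, with list medians as black bars and the median of all genes as a dashed line. The 10 genes have a median of 0.13, and the immediate early genes have a median of 0.67 and the proliferation genes of 0.48.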

How the data were processed

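RNA of the LVs of 3 WT and 3 *Lztr1* R409C/+ mice was sequenced. The authors trimmed reads with Trim Galore, aligned them to GRCm39 with HISAT2, excluded rRNA, and used StringTie. Versions, the annotation release, and strand settings are not given in the sources used here. The deposited table gives whole-number counts for each gene, and the sources used here do not say how these were derived from the reads. The authors' edgeR table, which holds log2 fold changes and log2 CPM as well as p-values, served for gene names only. Genes were filtered with filterByExpr, scaled with TMM, and compared with edgeR 4.0.16 (robust quasi-likelihood test, R 4.3.3), with Benjamini-Hochberg adjustment over 17212 genes and a threshold of 0.05. Single genes were tested with a two-sided exact permutation test on log2(CPM + 0.5). Exon lengths and positions came from GENCODE vM39, which held 56236 of 56923 identifiers. The labels do not state litters or batches, and p-values measure only the spread between these mice. The 10 genes, the lists, and the tests were chosen with earlier results of these data known. Genes named are the 10 genes, *Lztr1*, the MAPK score genes, the 2 genes with the smallest p of every other list, the gene of the lists and markers closest in pattern to each of the 10, and, chosen after their values were seen, *LTO1*, *Gm28592*, *Gm66231*, *Ccnd2*, *Ccnd3*, *Efna1*, *Cic*, the markers named, and genes with 0 counts. The rule also takes the marker with the smallest p of each cell type, but most markers are given here as sums. A gene under this rule and the summary of its list are not reported here. Alternatives were other scalings, filters, and tests (DESeq2 1.42.0 and edgeR's exact test), removal of mitochondrially encoded genes, a replicate block, a loess correction for gene length, omission of each mouse, and, for promoters, the 250 bases before the start. The omission of 2 mice together and the addition of *LTO1* counts were chosen after seeing the data. The quasi-likelihood test, edgeR's exact test, and DESeq2's test were first run on simulated data with known changes, with all mice and the main filter. The other alternatives were not run on simulated data.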

Additional observations from a re-analysis of the deposited data

How the results depend on the processing

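None of the 10 genes passed the adjusted threshold under any alternative, over 171 fits of single genes. *Myc*, *Ccnd1* (0.31 to 0.56), and *Phlda1* stayed above 0 throughout. *Epha2* was never below 0, but it had no clear direction at 2.46e-05 without *Lztr1* R409C/+ replicate 3 and 0.0043 without WT replicate 2. *Etv1* was below 0 with DESeq2's size factors (-0.0079), DESeq2's test (-0.0079), no filter (-0.015), and library size only (-0.17), and lay between -0.14 and 0.079 with 1 mouse left out. With library size only, which moved the median of all genes from 0.012 to -0.14, *Etv6* (-0.060) and *Ets1* (-0.10) were below 0 but above that median. Also below 0 were the differences of mean log2(CPM + 0.5), -0.13 for *Etv1*, -0.080 for *Etv6*, and -0.099 for *Ets1*. With 1 mouse left out, the ranges were -0.12 to 0.39 for *Etv5*, -0.027 to 0.15 for *Etv6*, -0.032 to 0.11 for *Ets1*, and -0.15 to 0.10 for *Ets2*. With both libraries of extreme mitochondrial share left out, *Ets2* was 0.026 and *Ier3* 0.050, and 10 of the 10 genes, beside 50.9% of all genes, were above 0. The share of all genes without overlap was not computed for 2 mice against 2, so no such count is given for the 10 genes. The same omission gave list medians of 0.42 for the MAPK score, 0.013 for the delayed genes, 0.047 for the MYC network, 0.14 for cyclin D and G1 control, and 0.74 for proliferation, and the gene length correction gave 0.13, 0.040, -0.064, -0.0091, and 0.39. The cause of these changes was not tested.

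With library size only, 5 of the 10 genes and 34.5% of all genes were above 0, and 0 were higher at an unadjusted p under 0.05 or without overlap. With 1 mouse left out, 5 to 9 genes were above 0, beside 50% to 52.5% of all genes. At an unadjusted p under 0.05, 0 to 1 were higher, beside 861 to 1014 of all genes. The share of all genes without overlap was not computed with 1 mouse left out, so no such counts are given for the 10 genes. Over all genes, 6 were higher and 1 lower after adjustment. These counts were 15 and 6 with library size only, 136 and 14 with DESeq2, 127 and 13 with edgeR's exact test, and 19 higher with no filter. At least 10 counts in every mouse gave 0 lower genes, the gene length correction 1 higher, the omission of both extreme libraries 0 higher, a false discovery rate of 0.1 15 higher, and 1 mouse left out 1 to 3 higher and 1 to 2 lower. At an unadjusted p under 0.05 there were 993 higher and 493 lower genes, 388 and 301 with library size only, 699 and 710 with the gene length correction, and 1176 and 305 with upper quartile scaling. Deviations from the genotype means of mice with the same replicate number correlated by -0.0013, 0.022, and -0.057. Not every mouse correlated best with its own number. These correlations gave no sign that the numbers pair the mice. With so few mice they cannot decide whether mice shared litters or batches, which the labels do not state. With the replicate block, 0 genes were higher after adjustment, 324 were lower at an unadjusted p under 0.05, and *Ccnd1* had a log2 fold change of 0.46. At the lowest count of *Myc*, counting error was 11.6%, below the coefficient of variation between mice of 41.9% in WT and 19.0% in *Lztr1* R409C/+ mice.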
